A study of Homo sapiens with 18 samples.

Results

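The PIM and SGK kinases were followed by RNAseq in SW620 cells, a line derived from a human colorectal cancer metastasis. The members were the 5 genes PIM1, PIM2, PIM3, SGK1 and SGK3 of the 26485 genes counted, and each was taken by its symbol. SGK1 and PIM1 were listed because their response to heat differed between the siRNA arms, so the values of both genes within an arm, between arms and for the difference of the 2 arms are a description, with no test. PIM2, PIM3 and SGK3 were not picked on these values. Cells carried either a scramble siRNA or an siRNA against Lonp1 (siLonp1), the ATP-dependent protease of the mitochondrial matrix encoded by LONP1. In both arms, Ctrl cells stayed at 37 °C, HS cells were exposed to 42 °C during 1 h, and HS+REC cells had the same heat followed by 1 h of recovery at 37 °C. There were 3 libraries in each of these 6 groups, 18 in all, which the methods describe as independent biological replicates. All groups are from 1 cell line, and the sources used here do not say which of the siRNA sequences in the methods was used for RNAseq.

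PIM kinases are serine/threonine kinases that need no activating phosphorylation, so their activity follows the amount of protein, which is set by transcription and by short-lived mRNA and protein. Cytokine signals through JAK and STAT factors are the best known inducers of PIM1, and the kinases phosphorylate regulators of survival, the cell cycle and translation. SGK kinases are relatives of AKT that become active only after phosphorylation by mTORC2 and PDK1. SGK1 was named for its induction by serum and glucocorticoids, and in the gut and kidney it is known for raising sodium transport through its substrate NEDD4L. SGK3 has a lipid-binding domain that places it on endosomes.

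The genes lie at separate loci in hg38 (GENCODE v44 gene bounds). PIM1 spans chr6:37170152-37175428 on the plus strand and SGK1 spans chr6:134169248-134318112 on the minus strand. PIM2 lies at chrX:48913182-48919024 on the minus strand and PIM3 at chr22:49960768-49964072 on the plus strand. For these 4 genes, RefSeq promoters were found by symbol. The stretches around the start sites are shown so that they can be set beside the responses to heat, which differed among these genes. Each is 300 bases from RefSeq (GRCh38.p14), 250 before and 50 after the start, read 5′ to 3′ on the gene's own strand. Capitals mark the GC box GGGCGG, the TATA box TATAAA and the glucocorticoid receptor half-site TGTTCT, each searched on both strands. The PIM1 window is chr6:37169902-37170201, the PIM2 window chrX:48918975-48919274 and the PIM3 window chr22:49960522-49960821. SGK1 has 3 annotated starts, of which the first, chr6:134174817-134175116, and the second, chr6:134177812-134178111, are printed. They are numbered by genome coordinate, so on the minus strand of SGK1 the first is the most downstream and the third the most upstream.
PIM1: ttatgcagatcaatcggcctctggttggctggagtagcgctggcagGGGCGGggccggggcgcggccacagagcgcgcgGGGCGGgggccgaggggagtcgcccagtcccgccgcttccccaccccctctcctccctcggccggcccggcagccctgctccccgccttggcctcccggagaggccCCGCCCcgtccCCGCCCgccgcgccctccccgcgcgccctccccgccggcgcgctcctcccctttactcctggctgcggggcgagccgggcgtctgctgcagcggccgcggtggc
PIM2: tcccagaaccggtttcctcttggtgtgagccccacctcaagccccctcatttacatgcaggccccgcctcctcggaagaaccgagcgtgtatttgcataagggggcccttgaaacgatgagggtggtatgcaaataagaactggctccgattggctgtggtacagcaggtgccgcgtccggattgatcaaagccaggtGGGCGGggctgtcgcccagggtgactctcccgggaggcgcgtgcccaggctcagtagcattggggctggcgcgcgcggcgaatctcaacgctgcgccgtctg
PIM3: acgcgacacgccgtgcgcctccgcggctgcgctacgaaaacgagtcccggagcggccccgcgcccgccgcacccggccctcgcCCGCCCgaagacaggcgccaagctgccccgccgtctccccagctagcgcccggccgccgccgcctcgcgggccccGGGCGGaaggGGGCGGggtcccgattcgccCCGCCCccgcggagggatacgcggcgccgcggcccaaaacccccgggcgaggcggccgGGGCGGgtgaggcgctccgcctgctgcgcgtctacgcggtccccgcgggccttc
SGK1 start 1: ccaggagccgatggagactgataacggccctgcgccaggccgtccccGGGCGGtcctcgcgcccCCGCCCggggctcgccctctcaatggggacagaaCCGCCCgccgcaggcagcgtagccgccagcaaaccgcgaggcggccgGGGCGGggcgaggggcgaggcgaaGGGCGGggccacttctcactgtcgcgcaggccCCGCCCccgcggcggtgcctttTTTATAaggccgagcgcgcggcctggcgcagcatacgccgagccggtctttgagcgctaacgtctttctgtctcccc
SGK1 start 2: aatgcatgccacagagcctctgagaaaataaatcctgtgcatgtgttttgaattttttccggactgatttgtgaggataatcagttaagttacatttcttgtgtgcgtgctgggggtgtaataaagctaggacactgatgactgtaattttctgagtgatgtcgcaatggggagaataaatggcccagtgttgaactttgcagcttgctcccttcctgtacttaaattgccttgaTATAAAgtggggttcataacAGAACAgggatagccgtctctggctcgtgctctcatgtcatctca

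The PIM1 and PIM3 windows were 79.7% and 81.3% G or C, against a median of 58.7% over the 35116 promoters of the table. They held 4 and 5 GC boxes and no TATA box. The PIM2 window held 1 GC box, with a G or C share of 62.3%. The first SGK1 start had 6 GC boxes and a TATA box, whereas the second was 43.0% G or C and had a TATA box and a TGTTCT half-site downstream of it. The third SGK1 start, at chr6:134318063-134318362, had a TATAAA match and a G or C share of 38.0%. Relative to the start, the TATAAA matches of SGK1 starts 1, 2 and 3 began at -27, -15 and -96. Those of starts 1 and 3 read TTTATA, on the opposite strand. Of all promoters of this length, 45.0% held GGGCGG, 11.5% TATAAA and 14.8% TGTTCT. The heat shock element units GAANNTTC and TTCNNGAA, which can share bases and occur in 6.8% and 7.7% of promoters, matched none of the 6 windows. The same was true of the STAT site TTCNNNGAA (7.7% of promoters), the CRE TGACGTCA (1.8%) and the AP-1 site TGACTCA (4.9%). A match or its absence describes only these letters in this stretch. The counts do not tell the SGK1 starts apart.

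The 3′ UTRs of these genes carried ATTTA, the core of the AU-rich elements that are known to shorten mRNA half-life. There were 5 in PIM1, 4 each in PIM3 and SGK1, 2 in PIM2 and 8 in SGK3, which has the longest 3′ UTR of the 5 genes at 2441 bases. Among 11326 tested genes with an annotated 3′ UTR, the median was 2, and 39.1% had at least 4. Among the 1502 of them with a 3′ UTR of 900 to 1400 bases, a range that holds PIM1, PIM2, PIM3 and SGK1, 27.0% had at least 4.

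Library totals ran from 30815860 to 47279297 counts. LONP1 was at 197 to 233 CPM (the count as a share of the library's TMM-scaled total) in scramble libraries. In the siLonp1 arm the Ctrl libraries had 19.4 to 22.5, the HS libraries 11.6 to 11.8 and the HS+REC libraries 25.6 to 28.9 CPM. Of 11 colon epithelial markers, 9 were above 1 CPM on average, led by KRT8 and KRT18, whereas CDX1 was at 0 in all libraries and KRT20 averaged 0.658 CPM. Of 10 markers of fibroblasts, leukocytes and endothelium, COL1A1, CD68 and PDGFRB were above 1 CPM, and COL3A1 was at 0. The summed level of these 10 moved with the groups, from 20.1 to 23.2 CPM in Ctrl scramble to 48.4 to 53.5 CPM in HS+REC siLonp1, and that of the 11 epithelial markers from 8400 to 8760 CPM in Ctrl scramble to 10400 to 10900 CPM in HS siLonp1. The part of either in the results was not tested. In bulk RNA, a change in the number of cells that express a gene and a change per cell cannot be told apart.

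The 5 genes covered a wide range of levels. Per length of the canonical transcript, PIM3 had the highest mean in Ctrl scramble, 27.2 ± 1.08 RPKM (SD, n = 3), followed by PIM2 with 17.8 ± 0.994 RPKM. SGK1 and PIM1 were low, with 0.441 ± 0.0681 RPKM and 0.32 ± 0.0958 RPKM. SGK3 had a mean of 0.0186 RPKM in the same group. SW620 cells therefore carried mainly PIM3 and PIM2 mRNA among these kinases, and this order of PIM3 and PIM2 above SGK1 and PIM1, with SGK3 lowest, held in the means of all 6 groups.

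SGK1 was low in Ctrl scramble and higher in each of the other 5 groups. The Ctrl scramble libraries had 1.58, 1.18 and 1.54 CPM, and the HS scramble libraries 2.37, 3.05 and 1.90 CPM. In the siLonp1 arm, Ctrl was already at 3.33, 3.31 and 3.12 CPM, and HS was at 2.01, 2.26 and 2.22 CPM. The Ctrl and HS groups did not overlap in either arm, but HS was the higher group in scramble and the lower group in siLonp1. After recovery the libraries had 3.09, 2.82 and 3.18 CPM in scramble and 3.83, 3.74 and 2.71 CPM in siLonp1, and the 2 arms overlapped. Ordered by their means, the groups ran from Ctrl scramble through HS siLonp1, HS scramble, HS+REC scramble and Ctrl siLonp1 to HS+REC siLonp1. Only the first step in that order, from Ctrl scramble to HS siLonp1, separated neighbours that did not overlap.

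As fitted log2 fold changes, the SGK1 difference between HS and Ctrl was 0.79 ± 0.17 (SE) in scramble and -0.59 ± 0.16 in siLonp1, which is 1.73-fold higher and 1.5-fold lower. The HS effect in siLonp1 minus that in scramble was -1.38 ± 0.24. For HS+REC against Ctrl the values were 1.09 ± 0.17 and 0.08 ± 0.15, a difference between arms of -1.01 ± 0.23. From HS to HS+REC, SGK1 changed by 0.29 ± 0.16 in scramble (0.15 to 0.49 with 1 library left out) and 0.67 ± 0.16 in siLonp1. Between arms, siLonp1 minus scramble was 1.19 ± 0.17 for Ctrl, -0.19 ± 0.17 for HS and 0.18 ± 0.15 for HS+REC. The separation of the arms was thus largest at 37 °C before heat. LONP1 itself was lower in HS than in Ctrl libraries of the siLonp1 arm, as SGK1 was, and the part of this in the SGK1 values was not tested.

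PIM1, the other gene listed for its response, was low without heat and highest after recovery. Ctrl libraries had 1.14, 0.631 and 0.817 CPM in scramble and 1.43, 1.06 and 1.25 CPM in siLonp1, and these groups overlapped. HS scramble libraries had 1.80, 2.43 and 2.28 CPM, all above the Ctrl libraries, and HS siLonp1 libraries had 1.13, 1.47 and 1.28 CPM, within and just above the range of Ctrl siLonp1. The 2 HS groups did not overlap. After recovery, both arms stood above all Ctrl and HS libraries, with 4.28, 4.08 and 4.07 CPM in scramble and 4.52, 4.27 and 3.17 CPM in siLonp1. Recovery thus ended with the arms overlapping, whereas HS had them apart.

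The fitted PIM1 difference between HS and Ctrl was 1.34 ± 0.20 in scramble and 0.06 ± 0.21 in siLonp1, and the second minus the first was -1.28 ± 0.29. That value was -1.53 without Ctrl scramble replicate 1, the library with the highest PIM1 of its group. For HS+REC against Ctrl the log2 values were 2.27 ± 0.19 in scramble and 1.68 ± 0.18 in siLonp1, or 4.83-fold and 3.2-fold. The step from HS to HS+REC was 0.94 ± 0.16 in scramble and 1.62 ± 0.18 in siLonp1. Between arms, siLonp1 minus scramble was 0.54 ± 0.22 for Ctrl, -0.74 ± 0.19 for HS and -0.05 ± 0.15 for HS+REC. With 1 library left out, the Ctrl value ran from 0.35 to 0.79. Both SGK1 and PIM1 rest on few reads: SGK1 had 56 to 161 counts per library and PIM1 30 to 191. A count of 30 has an exact 95% Poisson interval of 20.2 to 42.8, which covers counting error only.

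**Figure D1:**
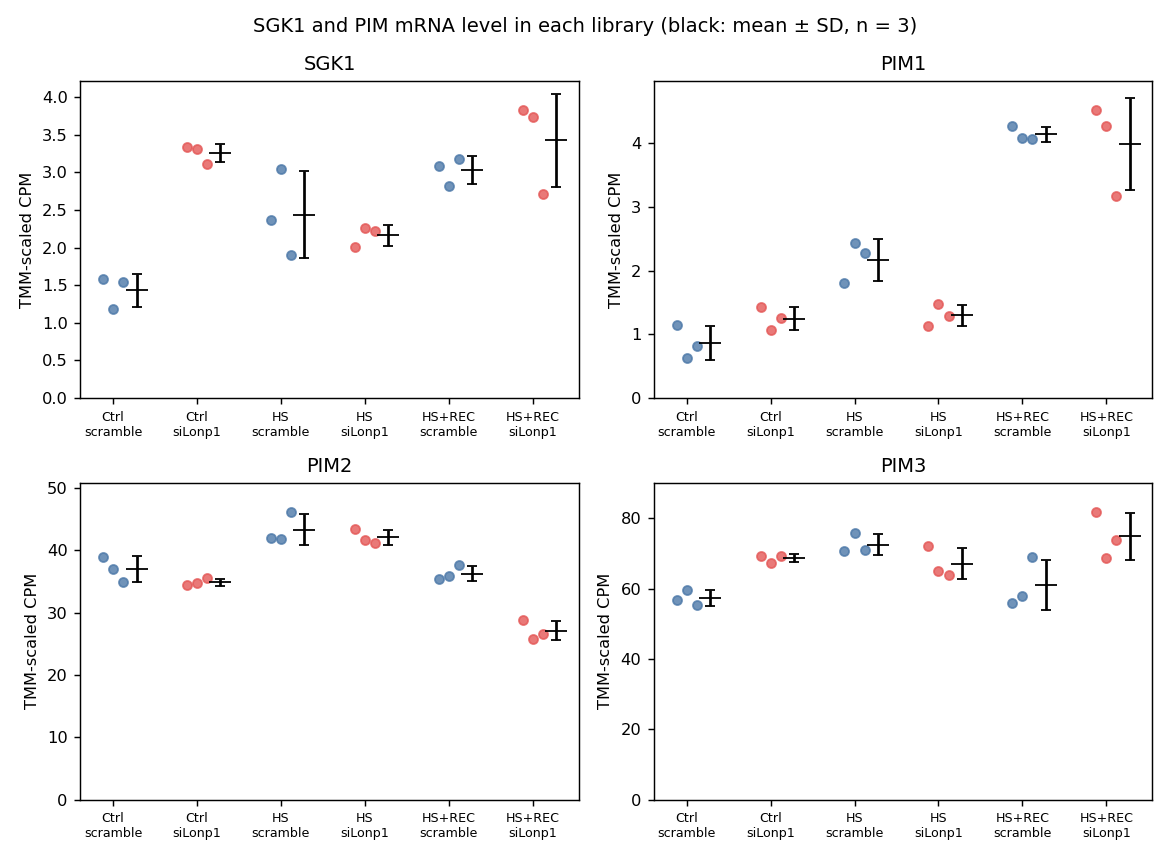
TMM-scaled CPM (vertical axis, starting at 0, a separate scale for each gene) of SGK1, PIM1, PIM2 and PIM3 in each library of the 6 groups, with the mean and SD of 3 libraries. SGK1 is lowest in Ctrl scramble and PIM1 is highest in both HS+REC groups, and PIM2 is lowest in HS+REC siLonp1.

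PIM2 was higher in HS than in Ctrl libraries of both arms and was lowest after recovery in siLonp1. Its libraries had 39.0, 37.1 and 34.9 CPM in Ctrl scramble and 42.0, 41.8 and 46.3 CPM in HS scramble. The same groups of the siLonp1 arm had 34.5, 34.7 and 35.5 CPM and 43.5, 41.7 and 41.2 CPM. Ctrl and HS did not overlap in either arm. After recovery PIM2 was at 35.4, 35.9 and 37.6 CPM in scramble, within the range of Ctrl, and at 28.8, 25.9 and 26.6 CPM in siLonp1, below every other library of the series.

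PIM2 rose with HS by 0.23 ± 0.06 log2 in scramble (adjusted p = 0.00576) and by 0.27 ± 0.06 in siLonp1 (adjusted p = 0.00109). Genes past the same threshold made up 36% and 42.2% of all tested genes in these contrasts. The effects of the arms differed by 0.04 (95% interval -0.14 to 0.22, adjusted p = 0.875). From HS to HS+REC, PIM2 fell in both arms, by 0.25 ± 0.06 in scramble (adjusted p = 0.00303) and by 0.64 ± 0.06 in siLonp1 (adjusted p = 2.85e-08), where 26.8% and 31.9% of tested genes were called. This fall differed between arms by -0.38 ± 0.09 (adjusted p = 0.0275), a difference called for 1.38% of tested genes. That call was lost, with log2 values of -0.36, -0.36, -0.36, -0.35 and -0.37 and adjusted p of 0.0977, 0.0931, 0.0799, 0.0601 and 0.0698, without HS scramble replicate 1, HS scramble replicate 2, HS siLonp1 replicate 1, HS+REC siLonp1 replicate 2 and HS+REC siLonp1 replicate 3, in that order. Between arms, siLonp1 minus scramble was -0.42 ± 0.06 in HS+REC (adjusted p = 6.77e-06), or 1.34-fold lower, in a comparison that called 54.1% of tested genes. The corresponding values were -0.08 for Ctrl (adjusted p = 0.281) and -0.04 for HS (adjusted p = 0.599), where 54.8% of tested genes were called. The Ctrl value passed at -0.16 with library size scaling alone (adjusted p = 0.0332) and at -0.12 with GC and length trends taken out (adjusted p = 0.0266). Against Ctrl, PIM2 after recovery was at -0.03 in scramble (adjusted p = 0.759) and fell by 0.37 in siLonp1 (adjusted p = 3.79e-05), in tests that called 42.3% and 51.2% of genes. The difference between these effects, -0.34 ± 0.09, missed the threshold (adjusted p = 0.0539).

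PIM3, the most abundant of the 5, stayed within a narrow band. Ctrl libraries had 56.9, 59.7 and 55.2 CPM in scramble and 69.3, 67.4 and 69.3 CPM in siLonp1, with no overlap. HS libraries had 70.6, 75.9 and 71.0 CPM in scramble and 72.3, 65.1 and 64.0 CPM in siLonp1, which overlapped. HS+REC libraries had 55.8, 57.9 and 69.1 CPM in scramble and 81.9, 68.7 and 73.8 CPM in siLonp1, which overlapped narrowly. The scramble arm thus held its highest PIM3 in HS, and the siLonp1 arm did not.

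In scramble PIM3 rose with HS by 0.34 ± 0.08 log2 (adjusted p = 0.00109) and fell by 0.25 ± 0.08 from HS to HS+REC (adjusted p = 0.0154). In siLonp1 the same differences were -0.03 (adjusted p = 0.767) and 0.16 (adjusted p = 0.121). The HS effect in siLonp1 minus that in scramble was -0.37 ± 0.11 and missed the threshold (adjusted p = 0.0732), in a test that called 1.87% of genes, and the HS+REC against HS difference was 0.41 ± 0.11 (adjusted p = 0.058). With siLonp1, PIM3 was higher by 0.26 ± 0.08 in Ctrl (adjusted p = 0.00668) and by 0.30 ± 0.08 in HS+REC (adjusted p = 0.00218), beside 49.2% and 54.1% of tested genes called, and differed by -0.11 in HS (adjusted p = 0.218). With GC and length trends taken out, the Ctrl and HS+REC values were 0.15 and 0.12, both past the threshold. The difference of the HS effects of PIM3 passed with other choices, at -0.37 with DESeq2 (adjusted p = 0.0392), and its siLonp1 effect in HS passed at -0.21 with library size scaling alone (adjusted p = 0.0201). Its fall from HS to HS+REC in scramble lost the call without HS scramble replicate 2, HS+REC scramble replicate 1 or HS+REC scramble replicate 2, at -0.22, -0.19 and -0.21 (adjusted p = 0.0794, 0.0916 and 0.0748).

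**Figure D2:**
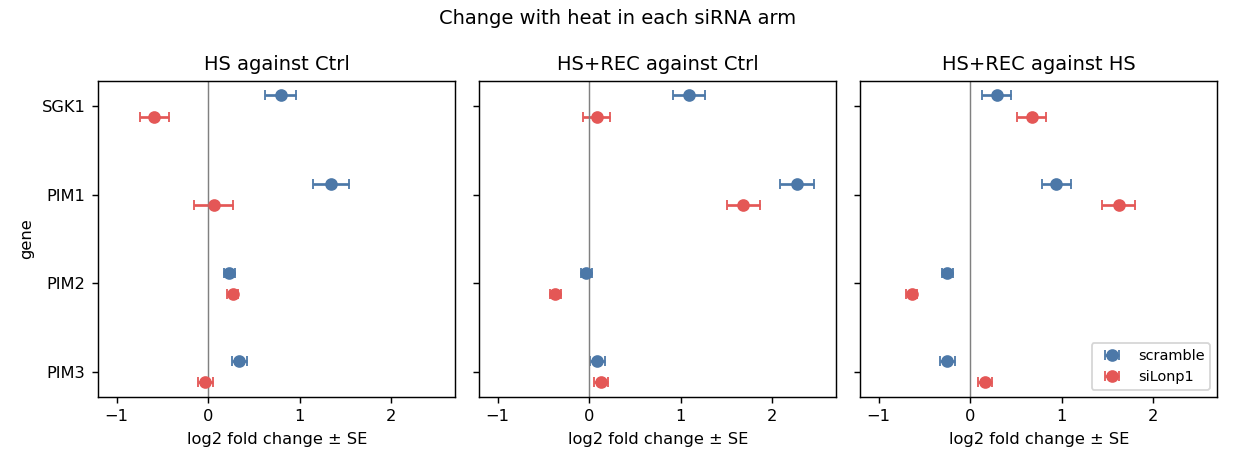
Fitted log2 fold change with its SE for each gene in the scramble and the siLonp1 arm, for HS against Ctrl, HS+REC against Ctrl and HS+REC against HS. For HS against Ctrl, SGK1 stands at 0.79 in scramble and -0.59 in siLonp1, whereas PIM2 stands at 0.23 and 0.27.

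The effects averaged over both arms are contrasts other than the difference on which SGK1 and PIM1 were listed, and were tested for all 4 genes past the filter. These averages, and that of siLonp1 below, use the same libraries as that difference. For SGK1 and PIM1 the tests may thus not be free of the listing. For HS, 3 of 4 passed, beside 51.5% of all tested genes. PIM1 rose by 0.70 ± 0.15 log2, or 1.62-fold (adjusted p = 0.000329), an average over unequal arms. PIM2 rose by 0.25 ± 0.04 (adjusted p = 4.38e-05) and PIM3 by 0.15 ± 0.05 (adjusted p = 0.0194). SGK1, with opposite directions in the arms, had an average of 0.10 ± 0.12 (95% interval -0.14 to 0.35, adjusted p = 0.501). The PIM3 call did not hold when only library size was used for scaling, at 0.12 (adjusted p = 0.066), or without Ctrl scramble replicate 3 (0.14, adjusted p = 0.0505), HS scramble replicate 2 (0.14, adjusted p = 0.053) or HS siLonp1 replicate 1 (0.13, adjusted p = 0.062).

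After recovery the 4 genes separated. PIM1 rose over Ctrl by 1.98 ± 0.13, or 3.93-fold (adjusted p = 4.14e-12), and was the 1 member past 2-fold, beside 4.92% of tested genes (3.69% for HS). SGK1 rose by 0.58 ± 0.11 (adjusted p = 0.000116), an average of 1.09 in scramble and 0.08 in siLonp1. PIM2 fell by 0.20 ± 0.04 (adjusted p = 0.00054), an average of -0.03 in scramble and -0.37 in siLonp1, and PIM3 was at 0.11 ± 0.05 (adjusted p = 0.0892). PIM3 passed, at 0.14, without HS+REC scramble replicate 1 (adjusted p = 0.0337) or HS+REC siLonp1 replicate 2 (adjusted p = 0.0332), and was at 0.03 with library size scaling alone (adjusted p = 0.692). In all, 3 of 4 members and 59.4% of all tested genes passed. Between HS and HS+REC, PIM1 rose by 1.28 ± 0.12, again past 2-fold as 2.03% of tested genes were (adjusted p = 6.41e-09), and SGK1 by 0.48 ± 0.11 (adjusted p = 0.00126), and PIM2 fell by 0.45 ± 0.04 (adjusted p = 1.5e-08). PIM3 did not pass there, at -0.05 (adjusted p = 0.529), so 3 of 4 were called against 41.8% of all tested genes. The low-level members, PIM1 and SGK1, were thus higher 1 h after heat than at its end, and PIM2 was lower.

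For siLonp1 against scramble averaged over the 3 conditions, 3 of 4 members passed, beside 71.1% of tested genes, or 3.66% with the 2-fold limit. SGK1 rose by 0.39 ± 0.09, or 1.31-fold (adjusted p = 0.000773), an average that lay mainly in Ctrl. PIM2 fell by 0.18 ± 0.04 (adjusted p = 1e-04), an average that lay mainly in HS+REC. PIM3 was higher by 0.15 ± 0.04 (adjusted p = 0.00434), but by 0.07 with library size scaling alone (adjusted p = 0.164) and by 0.04 once trends with GC content and length were removed (adjusted p = 0.118). PIM1 was at -0.08 (95% interval -0.31 to 0.15, adjusted p = 0.508). The siLonp1 contrast thus gave no common direction to the PIM genes.

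**Figure D3:**
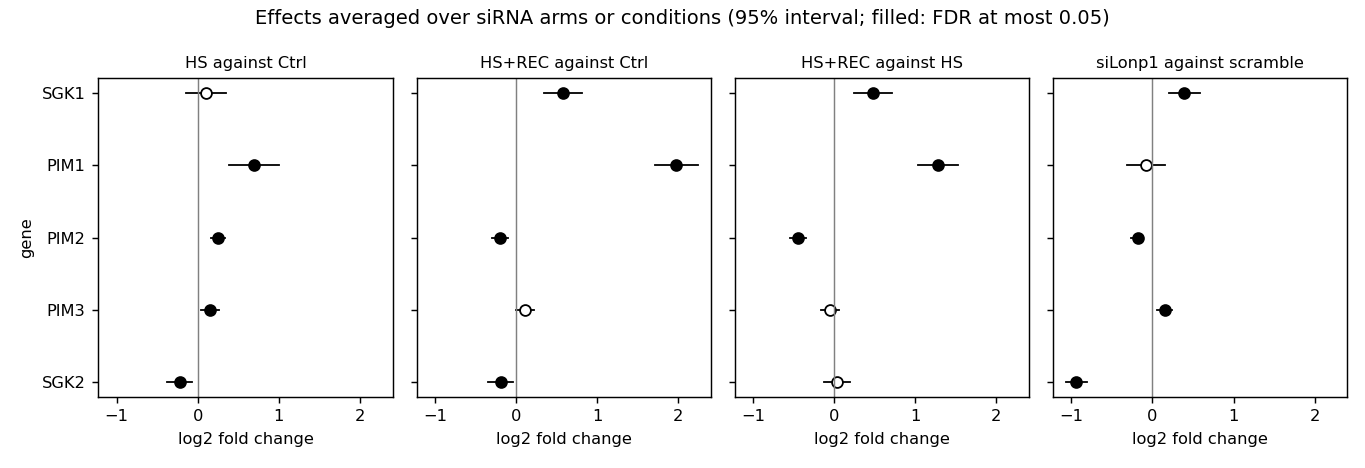
Log2 fold change averaged over arms (HS, HS+REC, HS+REC against HS) or over conditions (siLonp1) with its 95% interval, for SGK1, PIM1, PIM2, PIM3 and, for comparison, SGK2. Filled points have an adjusted p of at most 0.05. PIM1 after recovery, at 1.98, lies farthest above 0 among the PIM genes and SGK1, and SGK2 lies lowest for siLonp1, at -0.94.

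SGK3, at chr8:66712734-66862022 on the plus strand, was near the limit of detection. Its 18 libraries held 50 counts in all, with 0 to 9 in each and at most 0.203 CPM, and it did not reach the filter, so it was left out of the tests above. With no filter, its averaged log2 differences were 0.45 for HS (adjusted p = 0.659), -1.28 for HS+REC (adjusted p = 0.164), -0.62 for siLonp1 (adjusted p = 0.397) and -1.73 ± 0.69 for HS+REC against HS (adjusted p = 0.0495). At these counts the fitted values depend on the prior count and are not sizes of change. Per library there were 3, 4 and 3 counts in Ctrl scramble, 9, 5 and 0 in HS scramble and 0, 3 and 3 in HS+REC scramble. The siLonp1 arm had 3, 3 and 2 in Ctrl, 4, 4 and 2 in HS, and 1, 1 and 0 in HS+REC. The spread within HS scramble was as wide as that over all libraries. Of the 5691 exon bases of SGK3, 2503 also belong to the read-through gene C8orf44-SGK3, which had 0 or 1 counts per library, and how reads shared by both genes were counted is not stated in the sources used here.

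SGK2, the remaining gene of the family and not a member, was lower with siLonp1 in every condition. Its mean in the scramble arm was 8.48 ± 0.0792 CPM for Ctrl, 6.78 ± 0.251 for HS and 7.72 ± 0.356 for HS+REC, and 4.34 ± 0.582, 3.99 ± 0.212 and 3.64 ± 0.534 in the siLonp1 arm (SD, n = 3). The arms did not overlap in any condition. The siLonp1 effect on SGK2 was -0.97 ± 0.10 in Ctrl (adjusted p = 8.01e-08), -0.76 ± 0.11 in HS (adjusted p = 3.38e-06) and -1.08 ± 0.11 in HS+REC (adjusted p = 1.64e-08). In Ctrl, SGK1 thus had a siLonp1 difference of 1.19 where SGK2 had -0.97.

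The kinases' activators, inducers and substrates were read from 6 lists of 85 genes in all. Of 12 tested SGK activators and mTORC2 components, 1 rose and 1 fell with HS on average (median log2 change 0.00), and 2 rose and 8 fell with siLonp1 (median -0.16). Those that fell included PRR5, a subunit of mTORC2, at -0.62 ± 0.06 (adjusted p = 1.56e-09), and the kinase MTOR at -0.50 ± 0.05 (adjusted p = 3.35e-09). Over all tested genes, 24.7% rose and 26.8% fell with HS, and 36.1% rose and 35% fell with siLonp1, with medians close to 0. In HS+REC, 2 of these 12 rose and 5 fell (median -0.06). NR3C1, the glucocorticoid receptor that induces SGK1, was singled out after its values were seen and is given with no test, with means of 0.839 CPM in Ctrl and 2.07 CPM in HS+REC of scramble and 0.86 and 4.44 CPM in siLonp1.

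Of 8 tested glucocorticoid receptor target genes, 6 rose and 1 fell with HS (median 0.35), and 5 rose and 2 fell in HS+REC (median 0.45), beside 29.1% and 30.3% of all tested genes in HS+REC. DUSP1, a phosphatase of MAP kinases that heat and stress also induce, had the largest HS change, 3.23 ± 0.11 (adjusted p = 5.2e-17). With siLonp1, 2 rose and 3 fell (median -0.09). ERRFI1, an inhibitor of the EGF receptor, rose by 0.64 (adjusted p = 1.91e-13) and the transcription factor KLF9 fell by 0.48 (adjusted p = 1.36e-07).

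Among 16 tested SGK substrates and channels, 8 rose and 3 fell with HS (median 0.10), and 13 rose and 1 fell with siLonp1 (median 0.19). NDRG1, whose phosphorylation is used as a readout of SGK1, rose by 0.87 ± 0.15 with HS (adjusted p = 4.12e-05) and by 1.09 ± 0.12 with siLonp1 (adjusted p = 3.95e-08). FOXO1, a transcription factor held out of the nucleus by AKT and SGK, rose by 0.75 ± 0.06 with HS (adjusted p = 3.51e-10). The potassium channel KCNQ1 differed by 1.73 ± 0.16 with siLonp1, at means of 0.354 to 0.661 CPM in scramble and 1.31 to 2.23 CPM in siLonp1. It reached the filter only through the siLonp1 libraries, so this value, too, is a description, although it is among the 13 counted. These are mRNA levels and say nothing of phosphorylation.

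On the PIM side, 7 of 13 tested genes in the list of JAK-STAT inputs rose and 1 fell with HS (median 0.17). With siLonp1, 7 rose and 2 fell (median 0.22). Besides receptors, JAK kinases and STAT factors, the list holds the inhibitors SOCS1, SOCS2, SOCS3, CISH and PIAS3, so its counts mix inputs and inhibitors. In HS+REC, where PIM1 was highest, 3 rose and 5 fell against Ctrl (median 0.02), and 1 rose and 4 fell against HS (median -0.09), beside 41.8% of all tested genes called in either direction. Means in scramble went from 8.52 in HS to 2.88 CPM in HS+REC for SOCS3 and from 3.97 to 1.72 CPM for CISH. SOCS2 went the other way, from 1.44 to 1.74 CPM, and each kept its direction in siLonp1. The largest changes with HS or siLonp1 were in SOCS genes, feedback inhibitors of this pathway. SOCS1 had means of 0.189 and 0.118 CPM in Ctrl and of 1.39 and 1.24 CPM in HS of scramble and siLonp1, a fitted difference of 3.10 ± 0.25. It reached the filter only through its HS libraries, so this value is a description, with no test. It is among the 7 counted as higher with HS, and among the 4 counted as lower from HS to HS+REC, which the HS libraries decided as well. SOCS2 and SOCS3 rose with siLonp1 by 1.87 ± 0.10 (adjusted p = 1.81e-13) and 1.38 ± 0.08 (adjusted p = 2e-13). After recovery SOCS1 had means of 0.344 and 0.479 CPM.

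Of 15 PIM substrates, 7 rose and 4 fell with HS (median 0.17), and 5 rose and 6 fell with siLonp1 (median 0.06). The chemokine receptor CXCR4 rose by 1.98 ± 0.11 with HS (adjusted p = 5.82e-13) and the cell cycle inhibitor CDKN1A by 1.53 ± 0.08 (adjusted p = 3.15e-13). With siLonp1, CDKN1A rose by 0.69 (adjusted p = 3.76e-09) and FOXO3, which is in both substrate lists, by 0.90 (adjusted p = 9.32e-13). Of 16 related kinases, 2 rose and 5 fell with HS (median -0.08), and 3 rose and 8 fell with siLonp1 (median -0.09), led by SGK2 and by PKN2 at -0.80 (adjusted p = 3.6e-13).

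**Figure D4:**
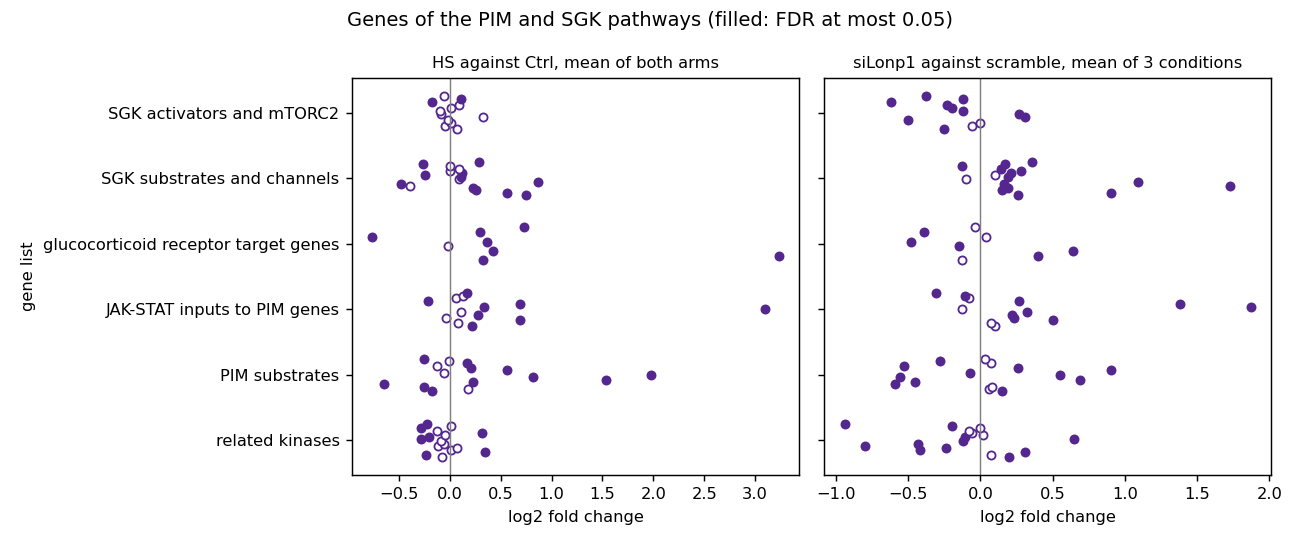
Log2 fold change of each tested gene of the 6 lists, for HS averaged over arms and siLonp1 averaged over conditions (horizontal axes in log2 units). Filled points have an adjusted p of at most 0.05, and the 2 points above 3 with HS are DUSP1 and SOCS1. SOCS1 with HS and KCNQ1 with siLonp1 reached the filter only through the groups where they were high.

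Across the 18 libraries, the genes whose log2 CPM followed each member most closely were ranked by Pearson's r, as a description over libraries that share their groups and scaling. SGK1 was most like KLF11, a zinc finger transcription factor (r = 0.87), then APPBP2 (0.82) and SCAF4 (0.815). For PIM1 the closest were TRIM10 (0.943), PROSER2 (0.943) and ZNF697 (0.942). PIM2 was closest to PANK1, a pantothenate kinase of coenzyme A synthesis (0.935), LINC00673 (0.914) and BMP5 (0.911). PIM3 was closest to CDKN1C, an inhibitor of cyclin-dependent kinases (0.873), KLF2 (0.865) and ZNF764 (0.854). Among the PIM genes, r was -0.42 for PIM1 and PIM2, 0.31 for PIM1 and PIM3 and -0.14 for PIM2 and PIM3. It was 0.70 for PIM1 and SGK1, which were both listed for their heat response in these libraries.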

How the data were processed

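RNAseq of SW620 cells was used, with 18 libraries in 6 groups of 3. Per the methods and the submitters' processing notes, the authors made stranded, paired-end mRNA libraries, aligned reads to hg38 with STAR 2.7.3a and counted them per gene with featureCounts. The deposited values are raw counts for 26485 genes. The strand setting, the annotation release and the handling of reads shared by several genes are not given in the sources used here.

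Genes above 1 CPM in at least 3 libraries were kept (12832). Differences were tested with the quasi-likelihood test of edgeR 4.0.16 (R 4.3.3), with TMM factors, in 1 model over the 18 libraries and with Benjamini-Hochberg adjustment over all genes tested at 0.05. Fold changes used a prior count of 0.125 and log2 CPM one of 2. RPKM used the length of the GENCODE v44 canonical transcript. The fit was tested on simulated data. The alternatives were RLE size factors, scaling by library size only, no filter and a stricter filter, edgeR's likelihood ratio test, DESeq2 1.42.0, a replicate block, fits of only the groups compared, a 2-fold limit and leaving out each library. A fit with GC and length trends taken out was chosen after seeing the data.

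The members and lists were chosen with earlier results of these data known. Besides the members, LONP1, SGK2, C8orf44-SGK3, the 3 genes most correlated with each member, and in each list up to 4 genes past FDR 0.05 and 2-fold with the largest HS or siLonp1 change (up to 2 past FDR 0.05 where none passed 2-fold) were named. NR3C1, CISH and PIAS3 were named outside this rule. Totals of 30815860 to 47279297 counts set the precision, which is lowest for SGK1, PIM1 and SGK3. Intervals on counts cover counting error only.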

Additional observations from a re-analysis of the deposited data

Results flagged for a closer look

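The change in PIM2 from HS to HS+REC differed between arms by the test of the difference itself: siLonp1 minus scramble was -0.38 ± 0.09 on the log2 scale (adjusted p = 0.0275). PIM2 was lower after recovery in both arms, by -0.25 in scramble and -0.64 in siLonp1. Leaving out HS scramble replicate 1 or 2, HS siLonp1 replicate 1, or HS+REC siLonp1 replicate 2 or 3 lost the call, at -0.37 to -0.35 (adjusted p = 0.0601 to 0.0977).

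SGK1 moved in opposite directions with HS in the 2 arms. The HS libraries were all above the Ctrl libraries in scramble and all below them in siLonp1, a difference of effects of -1.38 ± 0.24. This difference was not tested, since SGK1 was listed for it.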

How the results depend on the processing

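Over 67 results, 1718 of 1765 values under alternatives kept their side of the threshold, or for values with no test stayed within the spread of replicates. A change of sign between values that were not called was counted as kept. An example is the PIM3 HS+REC effect in scramble, 0.09, and -0.01 to 0.15 with 1 library left out. In all, 0 values turned a called direction. The averaged contrasts of the members kept 403 of 412. Replicate numbers did not pair the samples: deviations of same-numbered libraries correlated between -0.379 and 0.462 over 45 pairs (median -0.022), and a replicate block changed 0 calls, with PIM1 at 0.70 for the averaged HS effect. Differently numbered libraries ran from -0.408 to 0.561 over 90 pairs (median 0.022). The highest pair was HS+REC scramble replicate 3 and HS+REC siLonp1 replicate 1, which also had the highest PIM3 of their groups (69.1 and 81.9 CPM). The part of such shared deviations in the results was not tested. The exceptions among averaged effects were all PIM3. Its HS effect was 0.12 with library size only and 0.13 to 0.18 with 1 library left out, its HS+REC effect 0.03 with library size only and 0.06 to 0.14 with 1 library left out, its HS+REC against HS difference -0.07 with GC and length trends removed (adjusted p = 0.0252), and its siLonp1 effect 0.07 with library size only and 0.04 with those trends removed. The difference of HS effects of PIM1, not tested, was -1.53 to -1.08 with 1 library left out.

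Among differences of heat effects, siLonp1 minus scramble, those of PIM3 passed for HS against Ctrl at adjusted p of 0.0487 with library size only, 0.0215 with no filter, 0.033 with the likelihood ratio test, 0.0392 with DESeq2 and 0.00162 with the trends removed, and for HS+REC against HS at 0.0354, 0.017, 0.018, 0.0151 and 0.00305. The PIM2 difference of HS+REC effects, -0.34 (adjusted p = 0.0539), passed with library size only (0.0471), the likelihood ratio test (0.02), DESeq2 (0.0277) and the trends removed (0.0089). The causes were not tested. With a 2-fold limit, the members called went from 3 to 0 for HS, 1 for HS+REC, 1 for HS+REC against HS and 0 for siLonp1 with edgeR and with DESeq2 alike, while 3 had an unadjusted p under 0.05 in each. PIM1 dropped out under the filter that required the CPM minimum in all 18 libraries, and fits of only the groups compared were not run for averaged contrasts. The siLonp1 effect of PIM3 in HS passed at -0.21 with library size only (adjusted p = 0.0201) and -0.16 with the trends removed (adjusted p = 0.000953), and that of PIM2 in Ctrl at -0.16 (adjusted p = 0.0332) and -0.12 (adjusted p = 0.0266). SGK3 could be tested only with no filter, where HS+REC against HS passed (adjusted p = 0.0495) and the other averaged contrasts did not (adjusted p = 0.164 to 0.659), at 0 to 9 counts a library.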

Other observations

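In HS+REC siLonp1, replicate 3 had the lowest level of both SGK1 (2.71 CPM against 3.83 and 3.74) and PIM1 (3.17 CPM against 4.52 and 4.27). In the same library PIM2 and PIM3 were the middle values of their group, at 26.6 and 73.8 CPM.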
